A study of Homo sapiens with 6 samples.

Results

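The line of HCT116 human colon carcinoma cells that carries the TEAD4 mutant K178R was compared with the line that carries wild type TEAD4, gene by gene. The comparison takes the 2 K178R libraries and the 2 wild type libraries, 4 of the 6 RNA sequencing libraries in the study. The other 2 libraries come from a control line, labelled PQ. They took part in the choice of genes tested, the scaling and the estimate of the spread between libraries, but are not a side of the comparison. The series' design describes the lines as stable cells, and its title speaks of over-expression. Libraries were assigned by their titles, TEAD4KR for the mutant, TEAD4WT for wild type and PQ for the control. For wild type replicate 2 the genotype field names TEAD5, whereas the title reads TEAD4WT, and the library was kept in the wild type group. The labels give no promoter, vector, clone or culture for any line. Differences between the lines can therefore not be told apart from differences between clones or pools of cells, and p-values measure only the spread between libraries, which may be technical.

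TEAD factors bind DNA but activate transcription mainly through the coactivators YAP1 and TAZ (gene WWTR1), which the kinases of the Hippo pathway keep out of the nucleus. VGLL proteins compete with these coactivators for the same factors. In epithelial cells the pathway is known for linking cell density and tension to growth. In the usual notation K178R puts arginine in place of the lysine at the residue it names. In the 434-codon TEAD4 transcript ENST00000359864.6 the codon of that residue reads AAG, a lysine codon, and lies in exon 8 at chr12:3019119-3019121 on the plus strand of GRCh38 (GENCODE release 29). It is shown here with 45 coding bases on each side, in capitals, because it is the position the mutation is named for. The reference, not the transgene, is printed, since the deposited values hold no reads.
TEAD4 codon: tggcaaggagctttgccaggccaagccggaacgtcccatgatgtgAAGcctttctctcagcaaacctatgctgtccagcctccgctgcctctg

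TEAD4 was the check that the labels set the TEAD4 lines apart from control. Its level cannot show which of these lines carries K178R, so that assignment rests on the labels. Expression is given in FPKM, a count of sequenced fragments divided by transcript length and by library size. TEAD4 (chr12:2959330-3040673, plus strand) read 86.4 and 84.4 FPKM in the wild type libraries, 71.2 and 72.3 in the K178R libraries, and 16.6 and 17.5 in the control libraries. Both lines thus stood far above control, and the K178R libraries lay below the wild type libraries without overlap. The difference, K178R minus wild type, was -0.25 (SE 0.03, adjusted p = 0.00131) on the log2(FPKM + 1) scale used for every change below. FPKM counts introduced and endogenous TEAD4 together. The lower TEAD4 level moves with every difference between these lines, and its part in them was not tested.

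Across the transcriptome many genes differed by small amounts. Of the 11445 genes that reached 0.5 FPKM in 2 or more of the 6 libraries, 1187 (10.4%) were higher in K178R and 3952 (34.5%) were lower, by limma with a Benjamini-Hochberg adjusted p under 0.05. Genes past that threshold are said to have risen, fallen or been called. The median absolute change of the called genes was 0.26, and 553 of 5139 reached 0.5. At a change of 1 or more, 5 genes (0.0437%) were higher and 28 (0.245%) lower, and with a pseudocount of 0.1 in place of 1 these counts were 23 and 155. Both K178R libraries lay above both wild type libraries for 21.5% of genes and below them for 52.7%. The median change of all genes was -0.08. The split of calls depends on how the libraries are scaled. Median-of-ratios scaling divides each library by its median ratio to the gene-wise mean, here by 1.06 for both wild type libraries and 0.980 for both K178R libraries. It moved the median to 0.01 and the calls to 2600 higher (22.7%) and 2270 lower (19.8%), 42.6% of genes in all. With scaling 8 genes (0.0699%) were higher and 17 (0.149%) lower by 1 or more. All 1187 genes that were higher without scaling were higher with it, and all 2270 that were lower with it were also lower without it. For 115 genes only wild type libraries reached 0.5 FPKM, for 19 only K178R and for 16 only control libraries. In the wild type and K178R cases a difference was built into the selection. Without these genes, 1174 of 11295 were higher and 3858 lower (2584 and 2184 after scaling). BIRC3 and CXCL1, among the 28 lower by 1 or more, entered through wild type alone. Scaling moved changes upward, and each gene said to have risen or fallen below was called in the same direction with it unless stated. The word scaled marks the change of the same gene with scaling.

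**Figure D1:**
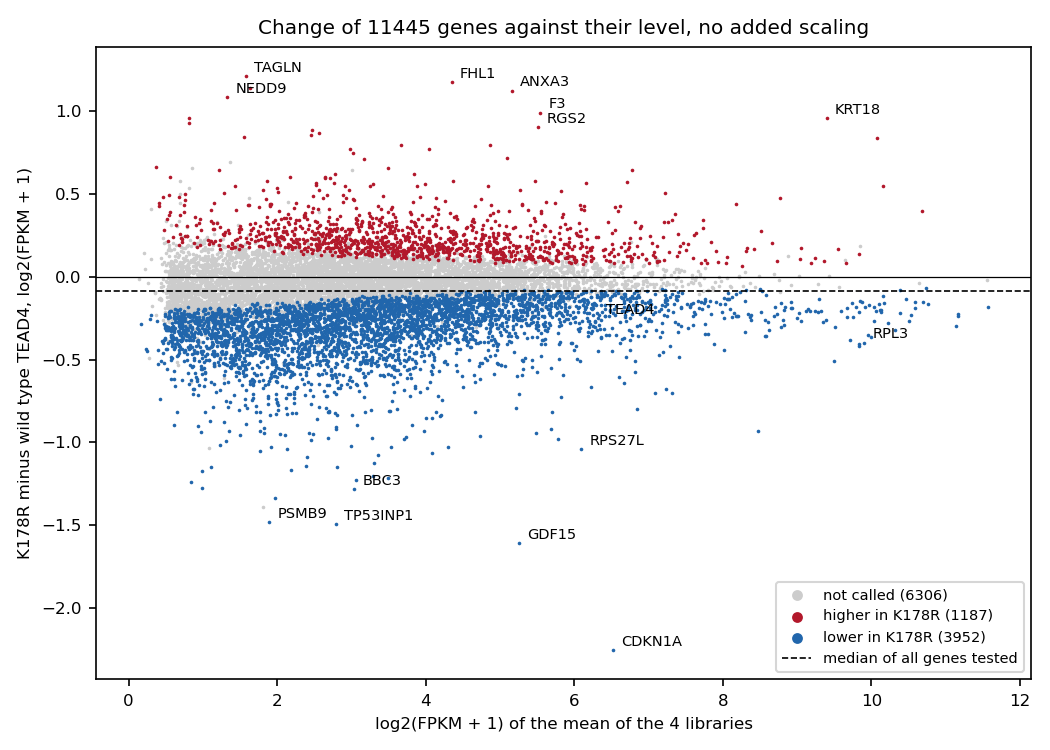
Change between the lines (K178R minus wild type, log2(FPKM + 1), vertical) against expression (log2 of the mean FPKM of the 4 libraries plus 1, horizontal) for the 11445 genes tested, red higher and blue lower in K178R by limma, grey not called, without added scaling. The dashed line is the median of all genes, -0.08, and CDKN1A lies lowest at -2.26.

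The libraries of a line were close to each other. The smallest steps between FPKM values put the relative depth of the 6 libraries between 0.925 and 1.05, but not the number of reads, which is unknown. Among genes whose mean was 10 FPKM or more, the median absolute log2 ratio was 0.0444 within the wild type pair, 0.0406 within the K178R pair and 0.130 to 0.133 across the lines. Epithelial markers summed to 1931 to 1986 FPKM in wild type and to 2978 to 3011 in K178R, mostly through KRT8 and KRT18, while the intestinal markers VIL1 and CEACAM5 stood at or near 0 in all lines. Markers of other cell types were nearly absent. Only COL1A1 of 8 fibroblast markers, CD68 and CORO1A of 10 leukocyte markers and ESAM of 7 endothelial markers could be tested, none above 4 FPKM, and PTPRC, CD3E, DCN and PECAM1 were at or near 0. Summed FPKM of K178R against wild type libraries was 1.73 to 1.88 against 3.64 to 3.78 for fibroblast, 2.76 to 3.24 against 5.43 to 5.55 for leukocyte and 1.37 to 1.52 against 1.97 to 2.47 for endothelial markers. COL1A1, CD68, CORO1A and ESAM were called lower, CORO1A neither after scaling (adjusted p = 0.0644) nor without wild type replicate 1 or K178R replicate 1, and the part of these markers in other results was not tested.

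The 12 largest rises, among genes with a mean of at least 2 FPKM in the higher line and the same call with and without scaling, included several cytoskeletal genes, with TAGLN first without scaling and FHL1 first with it. TAGLN (chr11:117199321-117204782, GRCh38), which encodes the actin-binding protein transgelin, read 0.818 and 0.779 FPKM in the wild type libraries, 2.97 and 3.39 in K178R and 3.0 and 3.1 in control. The K178R libraries were thus at the control level and 3.98 times the wild type mean (log2 1.22, scaled 1.27, SE 0.07, adjusted p = 4.53e-05). FHL1 (chrX:136146702-136211359), a LIM domain protein of muscle and stress fibres, read 11.7 and 11.3 FPKM in wild type, 27.2 and 27.3 in K178R and 1.69 and 1.62 in control. For FHL1 the order was control, wild type, K178R, with no overlap between lines (log2 1.18, scaled 1.28, adjusted p = 1.04e-05). The same order held for NEDD9, an adhesion docking protein (means of 0.00372, 0.605 and 2.40 FPKM, log2 1.08, scaled 1.14), RGS2, which dampens G protein signals (17.6, 30.8 and 58.7, log2 0.91, scaled 1.02), and SEMA3A, a secreted guidance cue (2.07, 3.18 and 6.64, log2 0.87, scaled 0.96).

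ANXA3, a membrane-binding annexin, read 22.1 and 20.7 FPKM in wild type, 49.1 and 46.7 in K178R and 105 and 104 in control, so that K178R stood between the other lines (log2 1.12, scaled 1.23, adjusted p = 1.09e-05). KRT7, a simple-epithelial keratin, had the same order (control mean 11.8, wild type mean 2.88, K178R mean 6.17, log2 0.89, scaled 0.97). KRT18, the type I keratin of simple epithelia, read 464 and 449 FPKM in wild type, 883 and 897 in K178R and 700.2 and 681 in control (log2 0.96, scaled 1.07, adjusted p = 3.86e-06). KRT18 and its partner KRT8 have many processed pseudogenes, so their counts are uncertain. KRT20, the keratin of mature intestinal epithelium, read 0.641 and 1.25 FPKM in wild type, 3.25 and 3.22 in K178R and 1.09 and 1.4998 in control, where wild type and control overlapped (log2 1.14, scaled 1.20, adjusted p = 0.00108). The transcriptional repressor ZBTB20 (2.90 to 6.07, log2 0.86, scaled 0.95) and the poorly characterised TMEM160 (1.10 to 2.75, log2 0.85, scaled 0.91, adjusted p = 0.00264) complete the list with F3, described below.

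**Figure D2:**
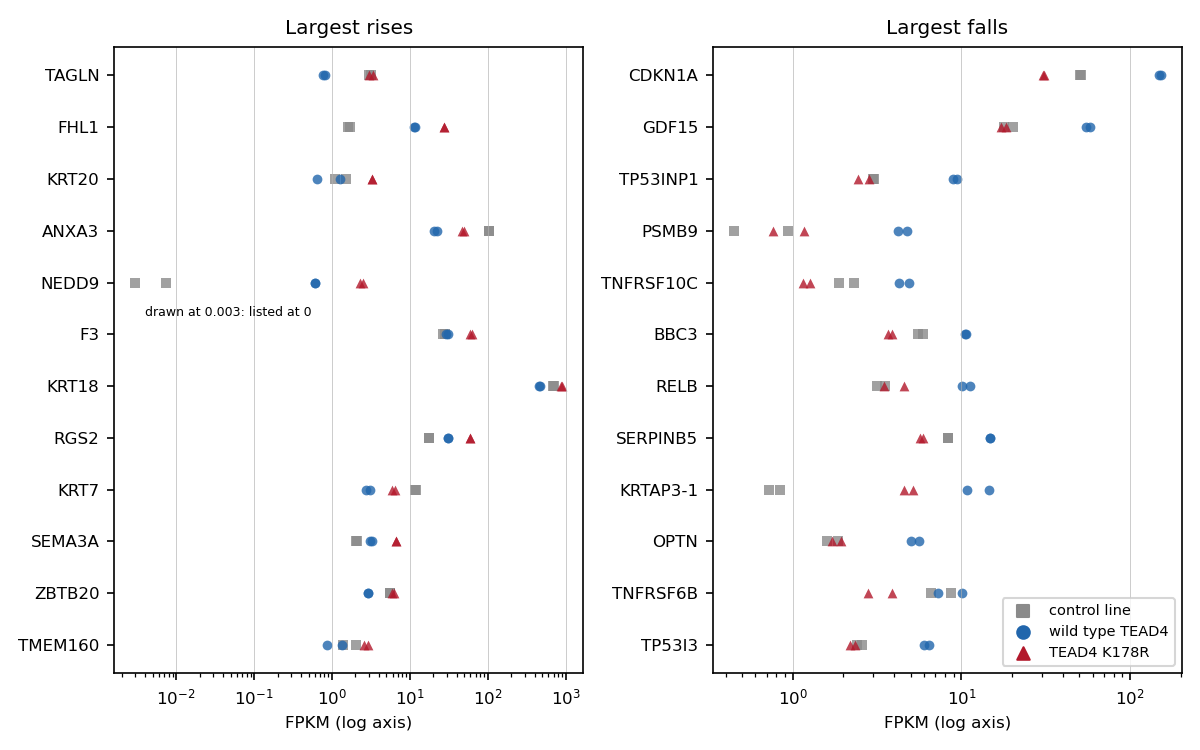
FPKM of each library (log axis) for the 12 largest rises and the 12 largest falls, control as grey squares, wild type TEAD4 as blue circles and K178R as red triangles. For each of the 24 genes both K178R libraries lie on the same side of both wild type libraries. The genes were selected by the change between these libraries, which nearly fixes that order.

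The 12 largest falls held 6 genes from the p53 target lists, which hold 40 of the 11445 genes tested. CDKN1A (chr6:36676460-36687339), the inhibitor of cyclin-dependent kinases known as p21, read 149 and 152 FPKM in the wild type libraries, 30.8 and 30.6 in K178R and 51.0 and 50.8 in control. Its wild type mean was 4.90 times the K178R mean, and the K178R libraries were also below the control libraries (log2 -2.26, scaled -2.15, SE 0.03, adjusted p = 2.66e-08, and -2.15 after scaling). GDF15, a stress cytokine, read 54.7 and 57.8 FPKM in wild type, 17.2 and 18.4 in K178R and 20.2 and 18.0 in control (log2 -1.61, scaled -1.50, adjusted p = 1.21e-05). TP53INP1 (log2 -1.49, scaled -1.40), TNFRSF10C (-1.34, scaled -1.25), BBC3 (-1.28, scaled -1.18) and TP53I3 (-1.14, scaled -1.05) were the other p53 targets and are described with their lists. PSMB9, a subunit of the immunoproteasome, read 4.20 and 4.75 FPKM in wild type and 0.767 and 1.17 in K178R (log2 -1.48, scaled -1.40, adjusted p = 0.000408). RELB, an NF-kB subunit, read 11.3 and 10.1 FPKM against 3.46 and 4.60 (log2 -1.23, scaled -1.13, adjusted p = 0.000242). SERPINB5, the serpin maspin (14.8 to 5.79 FPKM in the means, log2 -1.21, scaled -1.11), OPTN, an autophagy receptor (5.32 to 1.81, log2 -1.17, scaled -1.08), and TNFRSF6B, a soluble decoy receptor (8.68 to 3.35, log2 -1.15, scaled -1.05), fell as well. KRTAP3-1 (12.6 to 4.89, log2 -1.20, scaled -1.10) belongs to a family of similar genes, and its reads are uncertain.

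Among TEAD factors and their cofactors, 5 of 8 tested genes were lower and 1 higher in K178R, also after scaling, with a median of -0.26 (-0.16 after scaling). Among all genes 34.5% were lower, and 19.8% after scaling. TEAD3 read 8.52 and 7.76 FPKM in the wild type and 6.46 and 6.39 in the K178R libraries (log2 -0.30, scaled -0.20). The coactivator YAP1 read 27.8 and 28.7 against 22.6 and 23.5 FPKM (log2 -0.28, scaled -0.17, SE 0.03, adjusted p = 0.00084), and WWTR1 read 4.48 and 4.39 against 3.42 and 3.55 (log2 -0.28, scaled -0.19). VGLL4, the VGLL family member known to restrain TEAD activity, read 6.41 and 6.39 against 4.99 and 4.94 FPKM and had the largest fall of the list (log2 -0.31, scaled -0.21). The member called higher was VGLL1, with 0.0404 and 0 FPKM in control, 0.261 and 0.0437 in wild type and 0.652 and 0.551 in K178R. Only its K178R libraries reached the filter of 0.5 FPKM, so its direction was built into its selection, and the other 7 members counted 5 lower and 0 higher. TEAD1 (11.5 and 11.7 against 10.99 and 10.2 FPKM, adjusted p = 0.0572) and TEAD2 (6.61 and 5.97 against 6.42 and 6.71 FPKM, adjusted p = 0.524) did not pass, though TEAD1 was called lower without K178R replicate 1 (adjusted p = 0.0366).

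The calls for Hippo pathway components, the kinases and junction proteins that regulate YAP1 and TAZ, depended on scaling. So did those of all genes, with 10.4% higher and 34.5% lower, and 22.7% and 19.8% after scaling. Of 27 components tested, 4 were higher and 4 lower, with a median of 0.03. After median-of-ratios scaling 11 were higher and 1 lower, with a median of 0.12. The angiomotin family scaffold AMOTL2 (6.53 and 6.25 to 7.89 and 8.64 FPKM, log2 0.33, scaled 0.42) and the LATS-binding LIM protein AJUBA (9.53 and 9.13 to 11.1 and 11.8, log2 0.27, scaled 0.37) rose. The polarity proteins CRB3 (6.61 and 7.37 to 5.29 and 5.15 FPKM, log2 -0.36, scaled -0.26) and LLGL1 (log2 -0.18, and adjusted p = 0.31 after scaling) fell. The count of higher members was 2 without wild type replicate 1 or K178R replicate 1, and that of lower members 2 without wild type replicate 2 or K178R replicate 1. LLGL1 lost its call without wild type replicate 2 or either K178R library (adjusted p = 0.0577 to 0.180).

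Genes known as targets of YAP and TEAD were more often higher in K178R. Of 16 tested, 8 rose and 0 fell, with a median of 0.11, and 10 rose and 0 fell after scaling, with a median of 0.20. All genes tested give the scale, with 10.4% higher and a median of -0.08 without scaling, and 22.7% and 0.01 after it. Without wild type replicate 2, 1 member was lower, and PTPN14 was no longer called without any of the 4 libraries compared (adjusted p = 0.0750 to 0.132). F3, tissue factor, the initiator of blood coagulation, read 30.9 and 29.5 FPKM in wild type, 59.1 and 63.0 in K178R and 26.9 and 28.2 in control (log2 0.99, scaled 1.10, SE 0.04, adjusted p = 2.08e-05). DOCK5, an activator of RAC, read 8.10 and 8.52 against 15.1 and 15.3 FPKM, with 7.84 and 8.08 in control (log2 0.80, scaled 0.90). For F3 and DOCK5 the K178R libraries stood apart, while the wild type libraries were close to control. CRIM1, a transmembrane BMP antagonist (4.60 and 4.19 to 7.27 and 7.29 FPKM, log2 0.62, scaled 0.71), MYOF, a membrane repair protein (34.3 and 34.9 to 52.2 and 52.3, log2 0.58, scaled 0.69), and NT5E, the nucleotidase CD73 (6.85 and 6.96 to 10.9 and 10.4, log2 0.56, scaled 0.66), rose too. AMOTL2, the receptor kinase AXL (6.77 and 6.44 to 7.74 and 8.0 FPKM, log2 0.22, scaled 0.32) and the phosphatase PTPN14 (3.68 and 3.79 to 4.25 and 4.32, log2 0.16, scaled 0.25) made up the 8. Common reporter genes of the pathway were not called or not tested. CYR61 read 3.58 and 3.84 against 3.80 and 4.0 FPKM (log2 0.06, scaled 0.15, adjusted p = 0.43). CTGF, ANKRD1, TGFB2, IGFBP3, RBMS3 and FOXF2 stayed below the filter, with CTGF at 0.251 and 0.178 FPKM in wild type and 0.424 and 0.391 in K178R.

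The TEAD binding motif was looked for in RefSeq promoters of build GRCh38.p14, from 250 bases before to 50 after each transcript start, 300 bases in all. The letters searched were GGAATG on either strand. They occurred in 11.2% of 13161 windows of tested genes, 11.4% of 1372 windows of genes higher in K178R and 10.9% of 2597 windows of genes lower in K178R with and without scaling. Of 18 windows of the listed YAP and TEAD targets, which cover 16 of 22 genes, 8 (44.4%) held it. The members with a match that rose are printed because they carry both the motif and the change. The motif is in capitals and each sequence is on the strand of its gene. AMOTL2 is at chr3:134374511-134374576, AXL at chr19:41226505-41226548 and PTPN14 at chr1:214551797-214551852.
AMOTL2: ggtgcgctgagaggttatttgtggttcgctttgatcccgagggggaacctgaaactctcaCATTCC
AXL: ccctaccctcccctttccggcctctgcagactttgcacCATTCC
PTPN14: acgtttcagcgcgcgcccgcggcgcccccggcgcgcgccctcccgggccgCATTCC
The other 5 targets with a match did not pass the test or were not tested, and the windows of F3, MYOF and NT5E held no match. DOCK5 and CRIM1 had no window in the table.

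Target genes of p53 were mostly called lower in K178R, beside 34.5% of all genes, and 19.8% after scaling. p53, the tumour suppressor that is intact in HCT116, induces genes that halt the cell cycle, repair DNA and start cell death. Of 26 tested targets of arrest and stress, 25 fell and 0 rose in K178R, with a median of -0.63 (24 and 1 after scaling, median -0.53). Of 14 tested targets of cell death, 12 fell and 0 rose, with a median of -0.46 (10 and 2 after scaling, median -0.37). Over both lists, 37 of 40 had both K178R libraries below both wild type libraries, against 52.7% of all genes. SPATA18 did not reach the filter. Of the 28 genes lower by at least 1, a number that was 155 with a pseudocount of 0.1, 10 were in these lists. The lists hold 40 of the 11445 genes tested. After scaling 17 genes were lower by at least 1, and BTG2, DDB2, RPS27L and FDXR were no longer among them.

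Among the arrest and stress targets, BTG2, an antiproliferative cofactor of mRNA decay, read 22.7 and 21.0 FPKM in wild type, 10.2 and 9.73 in K178R and 13.8 and 12.8 in control (log2 -1.06, scaled -0.96). TP53INP1, which links p53 to autophagy, read 9.46 and 8.93 against 2.83 and 2.43 FPKM, with 3.04 and 3.0 in control. The DNA damage sensor DDB2 read 25.8 and 25.3 against 11.6 and 12.5 FPKM (log2 -1.03, scaled -0.92), and the ribonucleotide reductase subunit RRM2B, which supplies nucleotides for repair, 33.9 and 34.0 against 16.9 and 17.0 (log2 -0.96, scaled -0.85). RPS27L, a p53-induced ribosomal protein paralog (log2 -1.04, scaled -0.93), and FDXR, the mitochondrial ferredoxin reductase (log2 -1.03, scaled -0.93), fell by similar amounts. MDM2, the ubiquitin ligase that degrades p53, fell less (40.5 and 42.0 to 29.9 and 29.7 FPKM, log2 -0.46, scaled -0.35), and the K178R libraries were above the control libraries at 27.2 and 29.03. The receptor kinase EPHA2 was the member that did not fall (25.0 and 24.5 against 25.5 and 26.7 FPKM, log2 0.07, scaled 0.18, adjusted p = 0.17) and was called higher after scaling (0.18). GADD45A was called lower without scaling alone (log2 -0.28, scaled -0.18, and adjusted p = 0.0515 with scaling).

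Among the death targets, BBC3, the BH3-only protein PUMA, read 10.6 in both wild type libraries, 3.68 and 3.88 in K178R and 5.89 and 5.54 in control, so K178R was the lowest line (log2 -1.28, scaled -1.18, adjusted p = 1.26e-05). TNFRSF10C, a decoy receptor for TRAIL, read 4.28 and 4.92 against 1.16 and 1.27 FPKM. TP53I3, an oxidoreductase, read 6.40 and 5.98 against 2.33 and 2.18 FPKM, with 2.58 and 2.39 in control. BAX, the pore-forming effector of apoptosis, read 45.6 and 47.5 against 26.9 and 29.3 FPKM (log2 -0.71, scaled -0.60), and FAS, the death receptor, 4.40 and 4.53 against 2.75 and 2.85, with control lowest at 1.61 and 1.68 (log2 -0.52, scaled -0.44). TNFRSF10A (17.5 and 16.7 against 18.0 and 18.1 FPKM, adjusted p = 0.305) and the survival factor BCL2L1 (51.2 and 51.4 against 49.6 and 53.1 FPKM, adjusted p = 0.999) did not pass, and both were called higher after scaling. PMAIP1 and TNFRSF10D were called lower without scaling only, TNFRSF10D not without wild type replicate 2 or K178R replicate 1 (adjusted p = 0.0528 and 0.0671).

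**Figure D3:**
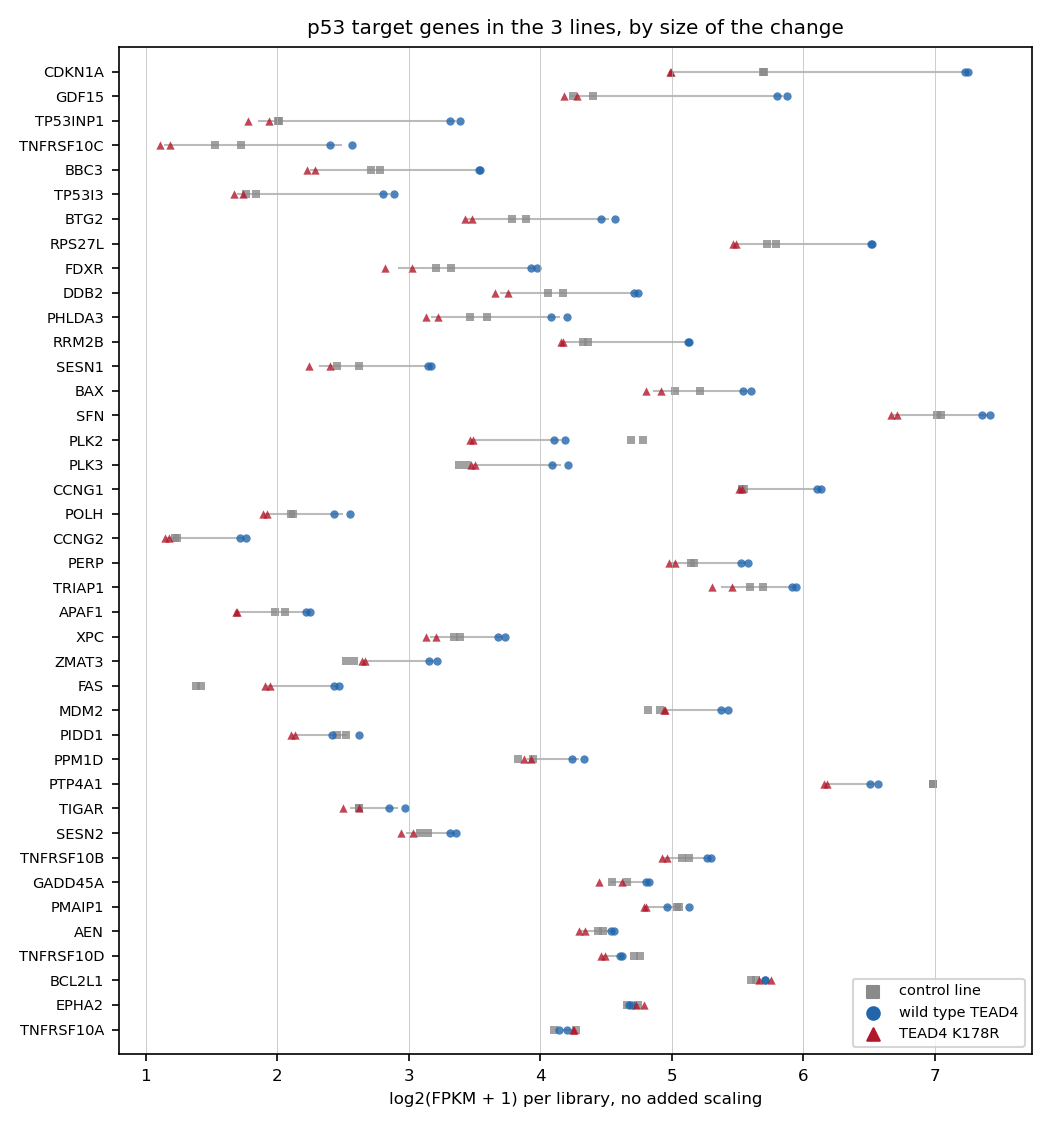
Expression of the 40 tested p53 target genes, log2(FPKM + 1) per library without added scaling, control as grey squares, wild type TEAD4 as blue circles, K178R as red triangles, ordered by the change. CDKN1A heads the plot, and for 37 of the 40 genes both red triangles lie left of both blue circles.

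The promoters of these genes were searched for a pair of adjacent 10-base p53 elements on either strand, with no spacer, at most 2 mismatches and the C and G of each core kept. Such a match was rare, in 34 of 13161 windows (0.258%). It was in 0 of 1372 windows of genes higher in K178R and in 17 of 2597 windows of genes lower with and without scaling (0.655%). Of 48 windows of p53 targets, which cover 33 of 41 genes, 5 (10.4%) held it, in 4 genes. Those 4 are printed with the 20-base match in capitals after the 60 bases before it, each on the plus strand of GRCh38.p14. MDM2 is at chr12:68808863-68808942, DDB2 at chr11:47214909-47214988, FAS at chr10:88991249-88991328 and AEN, a p53-induced nuclease, at chr15:88621246-88621325.
MDM2: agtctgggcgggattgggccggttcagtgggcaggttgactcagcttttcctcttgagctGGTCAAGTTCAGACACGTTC
DDB2: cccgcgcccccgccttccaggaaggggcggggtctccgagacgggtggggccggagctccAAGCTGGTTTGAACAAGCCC
FAS: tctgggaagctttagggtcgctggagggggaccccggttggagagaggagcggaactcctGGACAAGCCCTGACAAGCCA
AEN: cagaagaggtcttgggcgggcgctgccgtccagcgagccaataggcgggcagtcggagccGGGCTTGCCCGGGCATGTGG
DDB2 has 1 mismatch and the others have 2. The 4 genes were lower in K178R, with changes of -0.46 (MDM2), -1.03 (DDB2), -0.52 (FAS) and -0.23 (AEN, 22.3 and 22.6 against 18.6 and 19.3 FPKM). No match in this window says only that these letters are not there, as for CDKN1A.

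In NF-kB signalling, the inflammatory transcription pathway, 14 of 24 subunits, feedback inhibitors and chemokines tested fell and 0 rose, with a median of -0.29 (12 and 1 after scaling, median -0.23). Among all genes 34.5% were lower, and 19.8% after scaling. Without the 4 genes that entered the test through wild type alone, 10 of 20 fell and 0 rose, with a median of -0.21 (8 and 1 after scaling, median -0.14). For BIRC3, CXCL1, CXCL2 and CXCL3 only the wild type libraries reached the filter of 0.5 FPKM, so a difference was built into their selection and their values are a description. BIRC3, an inhibitor of apoptosis, read 1.81 and 1.78 FPKM in wild type, 0.139 and 0.174 in K178R and 0.213 and 0.200 in control. The chemokine CXCL1 read 1.87 and 1.61 against 0.283 and 0.146 FPKM, with 0.0471 and 0.181 in control. NFKB2, the precursor of the RELB partner p52, read 17.3 and 17.4 against 8.65 and 9.05 FPKM, with 7.61 and 7.28 in control (log2 -0.90, scaled -0.79). The inhibitor NFKBIA fell as well (19.9 and 19.6 to 10.4 and 10.5 FPKM, log2 -0.85, scaled -0.75).

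Genes of MHC class I antigen presentation and of the interferon response were called lower more often than higher. Of all genes 34.5% were called lower and 10.4% higher, and 19.8% and 22.7% after scaling. Of 18 antigen presentation genes, 14 fell and 1 rose, with a median of -0.34 (12 and 2 after scaling, median -0.23). TAP1, a subunit of the peptide transporter, read 19.6 and 19.8 FPKM in wild type, 9.52 and 10.2 in K178R and 9.75 and 9.68 in control (log2 -0.93, scaled -0.83, adjusted p = 2.37e-05). TAPBP, which loads peptides onto class I molecules (22.1 and 22.8 to 12.3 and 11.9 FPKM, log2 -0.84, scaled -0.73), and PSME2, a proteasome activator subunit (45.4 and 46.4 to 27.5 and 24.6, log2 -0.79, scaled -0.68), fell with it. B2M, the invariant light chain, read 185 and 184 against 113 and 117 FPKM, with 114 in both control libraries (log2 -0.68, scaled -0.57). The oxidoreductase PDIA3 rose slightly (log2 0.11, scaled 0.22) and was not called without wild type replicate 2 or K178R replicate 2. The classical HLA genes share sequence, and their values are uncertain. Of 28 interferon response genes, 17 fell and 1 rose, with a median of -0.34 (15 and 2 after scaling, median -0.26). Without IFIT2 and IFIT3, which reached the filter through wild type alone, 15 of 26 fell and 1 rose (13 and 2 after scaling). IFI35 (2.87 and 3.48 to 1.29 and 1.44 FPKM, log2 -0.81, scaled -0.73), IFI6 (7.26 and 8.01 to 4.0 and 4.57, log2 -0.71, scaled -0.61), the antiviral protein SAMD9 (1.73 and 2.05 to 0.728 and 0.876, log2 -0.68, scaled -0.61) and the oligoadenylate synthetase OAS3 (13.8 and 12.9 to 8.26 and 8.59, log2 -0.60, scaled -0.50) led the falls. The rise of the membrane protein IFITM3 (log2 0.08, scaled 0.20, adjusted p = 0.0456) was lost without any of the 4 libraries compared.

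Genes of DNA replication were higher in K178R. Of 47 tested, 30 rose and 5 fell, with a median of 0.17, against 10.4% higher and 34.5% lower of all genes. After scaling 38 rose and 0 fell, with a median of 0.28, against 22.7% higher and 19.8% lower of all genes. The replisome subunit GINS2 read 42.4 and 39.1 FPKM in wild type, 55.3 and 56.6 in K178R and 55.0 and 53.4 in control (log2 0.45, scaled 0.56, adjusted p = 0.000303). UHRF1, which maintains DNA methylation through replication, read 32.8 and 31.8 against 43.8 and 44.7 FPKM, with 47.1 and 49.6 in control (log2 0.44, scaled 0.55). The polymerase POLE (14.0 and 13.9 to 18.8 and 19.3 FPKM, log2 0.42, scaled 0.52) and the checkpoint mediator CLSPN (6.26 and 6.10 to 8.59 and 8.55, log2 0.42, scaled 0.51) followed. In these 4 genes the wild type libraries were the lowest of the 6. Among the members that fell, LIG1, RPA1, RPA3 and TK1 changed by -0.12 to -0.19, and these 4 were not called after scaling. The count of members that fell was 2 without either K178R library.

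Mitosis genes had shares of calls near those of all genes (10.4% higher and 34.5% lower, 22.7% and 19.8% after scaling). Of 51 tested, 4 rose and 19 fell, with a median of -0.07, and after scaling 14 rose and 8 fell, with a median of 0.04. CCNB1, the mitotic cyclin, read 138 and 139 FPKM in wild type and 109 and 111 in K178R (log2 -0.33, scaled -0.22, adjusted p = 0.000222). The securin PTTG1 (47.7 and 51.5 to 33.8 and 35.7 FPKM, log2 -0.50, scaled -0.39) and the centrosomal kinase NEK2 (18.996 and 18.9 to 12.9 and 14.0, log2 -0.47, scaled -0.36) fell more. CDC25A, the phosphatase that also drives entry into S phase, read 14.3 and 13.2 against 19.1 and 19.95 FPKM (log2 0.48, scaled 0.58), and the proliferation antigen MKI67 41.9 and 42.0 against 52.6 and 52.0 (log2 0.31, scaled 0.42). Of 27 histone genes tested, whose sequences are nearly identical and whose values are uncertain, 2 rose and 7 fell, with and without scaling, with medians of -0.19 and -0.16. HIST1H2AC (5.60 and 4.22 to 1.64 and 2.10 FPKM, log2 -1.04, scaled -0.95) and HIST1H2AG (log2 -0.68, scaled -0.62) were among those that fell. HIST1H2AB, at 0.789 and 0.553 FPKM in wild type and listed at 0 in the other 4 libraries, reached the filter through wild type alone. Without the 6 histone genes that reached the filter in 1 line only, 1 of 21 rose and 5 fell, with and without scaling. HIST1H2BO rose (0 and 0.429 to 1.36 and 1.21 FPKM). The count of higher histone genes was 4 without wild type replicate 1 and 1 without K178R replicate 1.

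Keratins and junction genes moved in opposite directions within their list. Of 35 tested, 9 rose and 11 fell, with a median of 0.04 (16 and 10 after scaling, median 0.13). Beside them, 10.4% of all genes rose and 34.5% fell, and 22.7% and 19.8% after scaling. KRT8, the type II partner of KRT18, read 783 and 758 FPKM in wild type, 1382 and 1379 in K178R and 1307 and 1288 in control (log2 0.84, scaled 0.95, adjusted p = 3.86e-06). The adherens junction cadherin CDH1 rose (10.2 and 10.97 to 13.1 and 13.1 FPKM, log2 0.28, scaled 0.39). The tight junction scaffold TJP3 read 4.61 and 4.79 against 1.98 and 1.90 FPKM, with 1.86 and 1.65 in control (log2 -0.96, scaled -0.87). The claudin CLDN4 (51.7 and 53.8 to 40.1 and 40.4 FPKM, log2 -0.38, scaled -0.27) and the splicing regulator ESRP1 (31.6 in both wild type libraries, 26.3 and 24.8 in K178R, log2 -0.30, scaled -0.19) also fell.

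Actin and contractile genes were more often higher. Of 32 tested, 17 rose and 7 fell, with a median of 0.13 (19 and 3 after scaling, median 0.23). The shares among all genes, for each list here, were 10.4% higher and 34.5% lower, and 22.7% and 19.8% after scaling. MYL9, a regulatory myosin light chain, read 19.8 and 20.6 FPKM in wild type, 36.0 and 35.7 in K178R and 45.03 and 44.3 in control (log2 0.80, scaled 0.91, adjusted p = 1.45e-05). Cytoplasmic actin ACTB read 946 and 909 against 1337 and 1375 FPKM, with 1480.2 and 1478 in control (log2 0.55, scaled 0.66), and the actin crosslinker FLNA 60.6 and 58.5 against 79.7 and 78.6 (log2 0.40, scaled 0.52). TAGLN, MYL9, ACTB and FLNA were lowest in the wild type libraries. Smooth muscle actin ACTA2 went the other way, from 2.32 and 1.98 to 0.726 and 0.696 FPKM (log2 -0.88, scaled -0.81). Of 16 caveolin, cavin and annexin genes, 6 rose and 4 fell, with a median of 0.03 (9 and 2 after scaling, median 0.14). After ANXA3 the largest were ANXA4 (log2 -0.34, scaled -0.25), ANXA6 (-0.30, scaled -0.19) and ANXA11 (0.29, scaled 0.40), and the caveolar coat protein CAV1 rose slightly (35.6 and 32.3 to 37.9 and 38.8 FPKM, log2 0.17, scaled 0.28), a call lost without wild type replicate 2 or either K178R library (adjusted p = 0.0560 to 0.0925). Of 20 collagen IV, laminin and integrin genes, 2 rose and 8 fell, with a median of -0.06 (3 and 5 after scaling, median 0.02). Without COL4A4, which reached the filter through wild type alone, the counts were the same, with medians of -0.06 and 0.05. ITGB4, the integrin of hemidesmosomes, fell most (8.69 and 8.71 to 5.69 and 6.16 FPKM, log2 -0.49, scaled -0.39), followed by LAMB2 (-0.45, scaled -0.35), ITGA2 (-0.37, scaled -0.28) and LAMA3 (-0.34, scaled -0.29), the last not called without wild type replicate 1 or K178R replicate 1 (adjusted p = 0.0742 and 0.0783). The lower matrix and adhesion genes numbered 4 without wild type replicate 1 and 5 without K178R replicate 1, and the higher ones 1 without wild type replicate 2 or either K178R library.

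Among signalling lists, the calls are set against 10.4% higher and 34.5% lower among all genes, and 22.7% and 19.8% after scaling. Of 11 EGF receptor ligands and ERBB genes, 5 fell and 1 rose, with a median of -0.10 (3 and 2 after scaling, median -0.04). The ligand EPGN read 4.33 and 4.46 FPKM in wild type, 1.58 and 2.02 in K178R and 0.0781 and 0.123 in control, so that K178R lay between the other lines (log2 -0.95, scaled -0.86). TGFA fell (13.2 in both wild type libraries, 9.11 and 9.77 in K178R, log2 -0.44, scaled -0.34), AREG fell (log2 -0.19, scaled -0.08) and EREG rose (log2 0.16, scaled 0.27). ERBB3 (log2 -0.25) was not called after scaling (adjusted p = 0.111), nor without wild type replicate 2 or either K178R library (0.0797 to 0.116). Without wild type replicate 2 or K178R replicate 1, 3 genes of this list were lower. Of 14 ERK feedback regulators and ETV factors, 2 rose and 4 fell, with a median of -0.07 (5 and 3 after scaling, median 0.02). The phosphatases DUSP4 and DUSP6, both induced by ERK, moved in opposite directions. DUSP4 read 23.0 and 22.5 against 12.2 and 12.4 FPKM (log2 -0.84, scaled -0.73) and DUSP6 49.3 and 48.6 against 61.4 and 66.5 (log2 0.38, scaled 0.49), with control lowest for both. ETV1 (log2 -0.68, scaled -0.61) and IER3 (-0.42, scaled -0.31) fell. The higher genes of this list numbered 1 without either wild type library or K178R replicate 1.

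Of 25 AP-1 and immediate early genes, 6 rose and 8 fell, with a median of -0.03 (8 and 6 after scaling, median 0.07). Beside the lists here, 10.4% of all genes rose and 34.5% fell, and 22.7% and 19.8% after scaling. EGR1, a zinc finger factor induced by growth signals, read 11.7 and 10.6 FPKM in wild type, 19.5 and 20.04 in K178R and 8.88 and 9.68 in control (log2 0.77, scaled 0.88). KLF4 (4.60 and 5.19 to 2.39 and 2.55 FPKM, log2 -0.76, scaled -0.67), JUND (log2 -0.50, scaled -0.39) and JUN (-0.40, scaled -0.31) fell. The count of higher members was 3 without K178R replicate 2. Of 21 BMP and TGF-beta response genes, beside 34.5% of all genes lower, 0 rose and 9 fell, with a median of -0.14 (4 and 7 after scaling, median -0.03), and 1 rose without wild type replicate 1 or K178R replicate 1. ID3, an inhibitor of basic helix-loop-helix factors and a BMP target, read 142 and 148 FPKM in wild type, 80.5 and 84.8 in K178R and 62.7 and 59.9 in control (log2 -0.80, scaled -0.69), and ID1 read 117 and 116.2 against 75.8 and 76.7 (log2 -0.61, scaled -0.50). BHLHE40 (log2 -0.79, scaled -0.69) and the ligand BMP7 (-0.67, scaled -0.59) fell. BAMBI, a BMP and TGF-beta pseudoreceptor, read 27.8 and 31.2 in wild type, 30.0 and 29.6 in K178R and 5.44 and 5.91 in control, and did not differ past the threshold between the TEAD4 lines (adjusted p = 0.84). BMP4 stood at 10.9 and 9.59 against 12.1 and 10.7 FPKM, with 79.3 and 79.6 in control (adjusted p = 0.139), and was called higher after scaling (0.0275) and without wild type replicate 1 (0.0464).

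Of 16 Wnt target and feedback genes, 2 rose and 7 fell, beside 34.5% of all genes lower, with a median of -0.09 that was close to the -0.08 of all genes (5 and 4 after scaling, median -0.004). For each list here, 10.4% of all genes were higher, and after scaling 22.7% were higher and 19.8% lower. SOX9, a transcription factor of intestinal progenitors, read 13.2 and 12.6 FPKM in wild type, 5.16 and 6.07 in K178R and 9.17 and 9.49 in control (log2 -1.07, scaled -0.97, adjusted p = 7.85e-05). RNF43, the ligase that removes Wnt receptors (6.73 and 6.61 to 3.77 and 3.74 FPKM, log2 -0.69, scaled -0.59), and NKD2 (log2 -0.76, scaled -0.67) fell. For SOX9 and RNF43 the K178R libraries were the lowest of the 6. DKK1, a secreted Wnt antagonist, rose from 368 and 359 to 502 and 510.4 FPKM, with 274 and 285 in control (log2 0.48, scaled 0.59). Of 17 HOXA and HOXB genes, 3 rose and 3 fell, with a median of -0.04 (4 and 2 after scaling, median 0.07), among them HOXB13 (log2 -0.50, scaled -0.41), HOXA5 (-0.47, scaled -0.38), HOXB6 (0.28, scaled 0.39) and HOXB9 (0.23, scaled 0.34). The higher HOX genes numbered 1 without wild type replicate 2 or either K178R library. HOXB13 was not called without wild type replicate 1 or K178R replicate 1 (adjusted p = 0.0582 and 0.0660), HOXB6 without K178R replicate 1 (0.0548), and HOXB9 without wild type replicate 2 or K178R replicate 2 (0.0636 and 0.0682). Of 4 mesenchymal genes, FN1 rose (log2 0.44, scaled 0.52) and MMP14 (-0.52, scaled -0.43) and SNAI1 (-0.30, scaled -0.20) fell, with medians of -0.17 and -0.06, and VIM and ZEB1 did not reach the filter. Of 7 intestinal differentiation genes, 4 fell and 0 rose (3 and 0 after scaling), with medians of -0.19 and -0.10, led by the water channel AQP3 (10.1 and 9.13 to 5.34 and 5.84 FPKM, log2 -0.69, scaled -0.59) and with CDX2 (-0.29, scaled -0.20), CA2 (-0.22, scaled -0.11) and GATA6 (-0.19). Of the 25 genes listed, 18 were not tested. KRT20, counted with the keratins, rose (log2 1.14, scaled 1.20). GATA6 was not called after scaling, nor without wild type replicate 2 or either K178R library (adjusted p = 0.0749 to 0.155). In this list 1 member was higher without K178R replicate 1.

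Genes of protein synthesis differed by list. Their calls are set against 10.4% higher and 34.5% lower among all genes, and 22.7% and 19.8% after scaling. Of 81 cytosolic ribosomal protein genes, 77 fell and 0 rose, with a median of -0.21, and after scaling 52 fell and 0 rose, with a median of -0.10. RPS27L, the p53 target, had the largest change, followed by RPL3 (1089 and 1082 to 820.3 and 828 FPKM, log2 -0.40, scaled -0.28), RPL28 (-0.39, scaled -0.28) and RPS28 (-0.38, scaled -0.27). Ribosomal protein genes have many processed pseudogenes, so single values are uncertain. Of 33 ribosome biogenesis genes, 19 rose and 3 fell, with a median of 0.10 (28 and 0 after scaling, median 0.22). UTP20, a factor of the small subunit processome, read 9.08 and 8.86 FPKM in wild type and 12.5 and 12.01 in K178R (log2 0.41, scaled 0.51), and MYBBP1A (0.37, scaled 0.48), URB2 (0.31, scaled 0.41) and NIP7 (0.27, scaled 0.38) rose as well. The 3 that fell, NHP2, NOP2 and DDX10, changed by -0.09 to -0.14, none called after scaling, and 0 or 1 of the list fell when any library was left out. Of 20 aminoacyl-tRNA synthetases, 3 rose and 3 fell, with a median of 0.01 (12 and 0 after scaling, median 0.11), among them NARS (log2 -0.17, scaled -0.06), QARS (-0.15, scaled -0.04), GARS (0.15, scaled 0.26) and YARS (0.12, scaled 0.23). NARS and QARS were not called after scaling (adjusted p = 0.181 and 0.263). The higher ones numbered 1 without wild type replicate 2 or K178R replicate 2, and YARS was then not called (adjusted p = 0.0560 and 0.0582). Of 78 mitochondrial ribosomal protein genes, 6 rose and 20 fell, with a median of -0.06 (24 and 7 after scaling, median 0.05), among them MRPL53 (-0.39, scaled -0.28), MRPL48 (-0.35, scaled -0.25), MRPS25 (0.33, scaled 0.43) and MRPL20 (0.30, scaled 0.41).

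Of 81 genes of the respiratory chain and ATP synthase, 67 fell and 0 rose, with a median of -0.20 (32 and 1 after scaling, median -0.09). Among all genes 34.5% fell and 10.4% rose (19.8% and 22.7% after scaling). ATP5MC1 read 127 and 114 FPKM in wild type and 86.0 and 85.7 in K178R (log2 -0.48, scaled -0.37), and NDUFA2 (-0.48, scaled -0.37), ATP5MF (-0.45, scaled -0.34) and UQCRH (-0.45, scaled -0.33) fell alike. Transcript length moves with these lists. In 5 equal groups of genes by transcript length the median change went from -0.11 in the shortest to -0.05 in the longest, and by GC content from -0.05 in the lowest to -0.14 in the highest. The median length was 683 bases for ribosomal protein genes and 703 for respiratory genes, against 1811 for all genes tested. Removal of a smooth trend with length in each library, chosen after seeing the data, also recentres the libraries and put the median of all genes at 0.01. It gave medians of -0.09 for each of these lists, with 48 ribosomal protein and 31 respiratory genes lower. Median-of-ratios scaling alone, with no term for length, gave -0.10 and -0.09, with 52 and 32 lower, values close to those after removal of the trend.

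**Figure D4:**
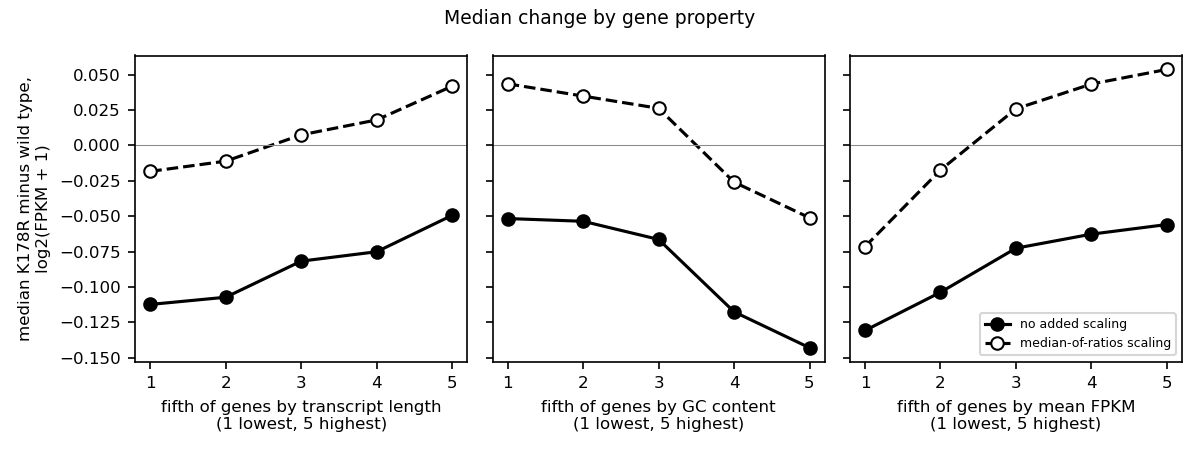
Median change, K178R minus wild type in log2(FPKM + 1), in 5 equal groups of genes by transcript length, GC content and mean FPKM, filled circles without and open circles with median-of-ratios scaling. The medians without scaling rise from -0.11 to -0.05 with length and fall from -0.05 to -0.14 with GC content.

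Of 36 proteasome subunit genes, 28 fell and 0 rose, with a median of -0.18 (11 and 3 after scaling, median -0.07), with PSMB6 (log2 -0.49, scaled -0.37), PSMB3 (-0.41, scaled -0.30) and PSMD4 (-0.35, scaled -0.24) after PSMB9. For this and the lists that follow here, 34.5% of all genes fell and 10.4% rose (19.8% and 22.7% after scaling). Of 54 lysosomal and V-ATPase genes, 29 fell and 0 rose, with a median of -0.16 (16 and 4 after scaling, median -0.06), and 1 rose without K178R replicate 1. The lysosomal hydrolases MAN2B1 (13.1 and 14.3 to 8.43 and 7.75 FPKM, log2 -0.69, scaled -0.59) and FUCA1 (7.73 and 7.94 to 4.64 and 4.46, log2 -0.67, scaled -0.57) led them, followed by ATP6V0A1 (-0.47, scaled -0.37) and ARSA (-0.38, scaled -0.33). Of 31 chaperone genes, 7 rose and 12 fell, with a median of -0.05 (14 and 6 after scaling, median 0.06), and 3 rose without K178R replicate 2. HSPB8 (4.31 and 3.86 to 2.08 and 1.65 FPKM, log2 -0.83, scaled -0.75), DNAJB4 (-0.60, scaled -0.50) and the constitutive HSPA8 (1048 and 1022 to 784 and 777 FPKM, log2 -0.41, scaled -0.29) fell, as did HSPA1B (-0.82, scaled -0.71), which is nearly identical to HSPA1A and therefore uncertain.

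In metabolism, 37 genes of glycolysis and the hypoxia response split into 5 higher and 19 lower, with a median of -0.14 (11 and 12 after scaling, median -0.04). For each list here the shares of all genes were 10.4% higher and 34.5% lower, and 22.7% and 19.8% after scaling. The hypoxia-induced NDRG1 (6.63 and 7.34 to 4.26 and 4.30 FPKM, log2 -0.60, scaled -0.50), the secreted ANGPTL4 (-0.57, scaled -0.51), the enolase ENO2 (-0.53, scaled -0.43) and MXI1, a MAX partner (-0.48, scaled -0.38), fell. Of 38 cholesterol and fatty acid synthesis genes, 10 rose and 11 fell, with a median of -0.02 (17 and 4 after scaling, median 0.08). TM7SF2, a sterol reductase, read 9.97 and 9.44 FPKM in wild type, 4.04 and 4.52 in K178R and 6.32 and 6.09 in control (log2 -1.02, scaled -0.92), and the desaturase FADS1 fell (-0.37, scaled -0.27), while the elongase ELOVL6 (0.35, scaled 0.45) and HMGCS1 (0.33, scaled 0.43) rose. In this list 6 rose without K178R replicate 2, and 7 fell without wild type replicate 1 or either K178R library. Of 34 ATF4 and unfolded protein response genes, 9 rose and 5 fell, with a median of 0.05 (17 and 3 after scaling, median 0.15). The amino acid transporters SLC7A5 (122 in both wild type libraries, 174 in both K178R libraries, log2 0.51, scaled 0.62, adjusted p = 2.25e-05) and SLC7A11 (4.93 and 5.84 to 8.03 and 7.67 FPKM, log2 0.47, scaled 0.57) and the glutathione-degrading CHAC1 (0.45, scaled 0.51) rose, while the chaperone cofactor DNAJB9 fell (-0.44, scaled -0.34).

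**Figure D5:**
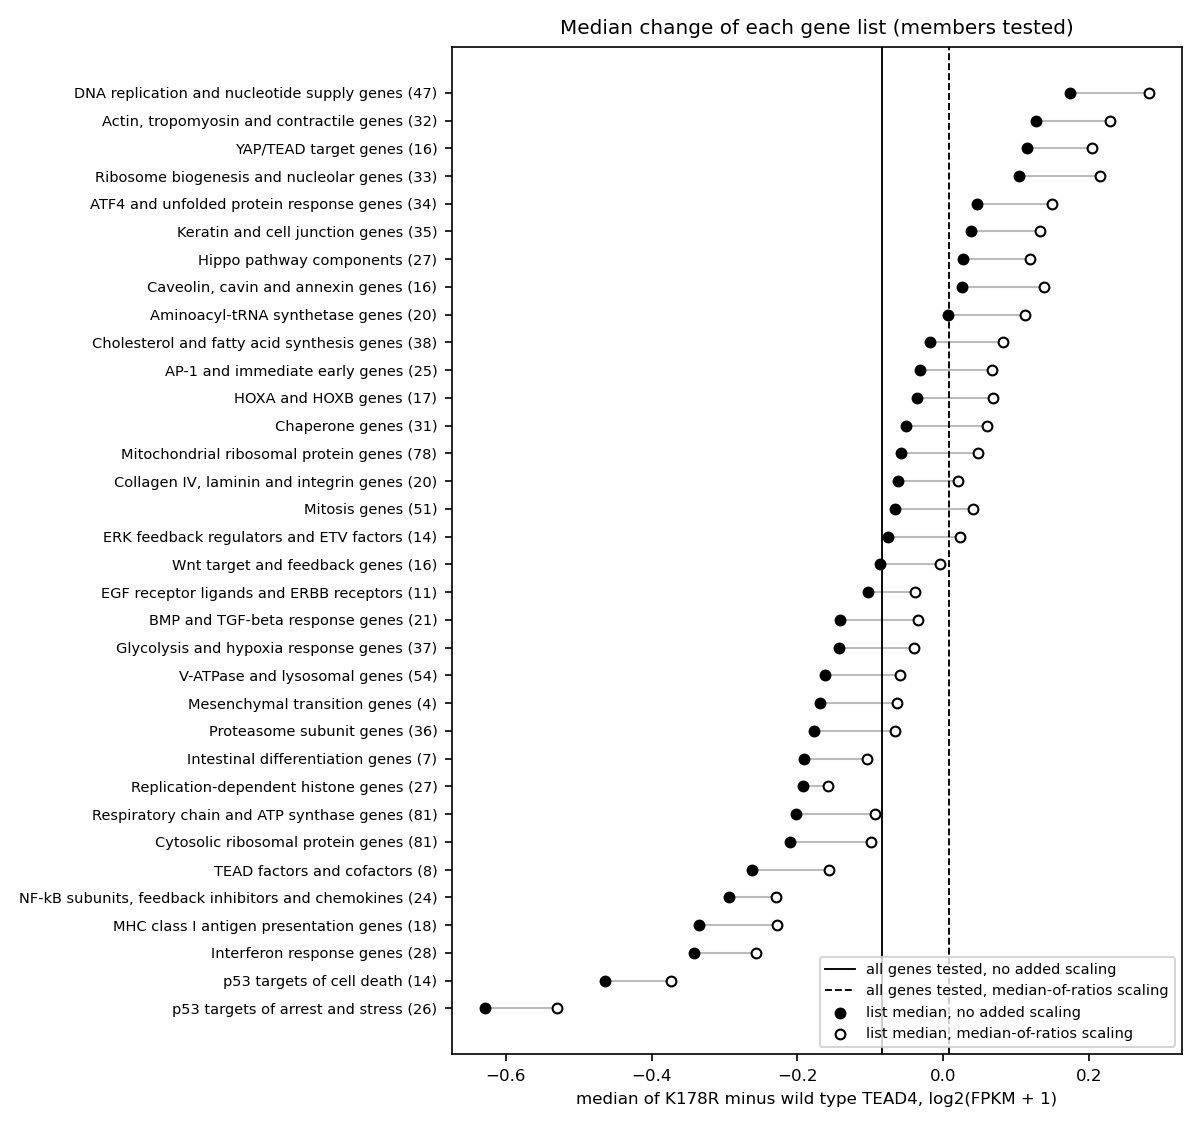
Median change of the tested members of 34 gene lists, K178R minus wild type in log2(FPKM + 1), filled circles without and open circles with median-of-ratios scaling, with the medians of all genes tested as a solid line (-0.08) and a dashed line (0.01). The p53 lists lie lowest, at -0.63 and -0.46 without scaling, and DNA replication lies highest at 0.17.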

How the data were processed

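RNA was extracted with Trizol and 1 µg went into TruSeq RNA libraries, per the labels' protocols. The authors deposited FPKM values, 1 table of 20030 gene rows per library. Bowtie 0.12.2 and hg18 are named in the submitters' processing notes. The program behind the FPKM values, its annotation and its strand setting were not given in the sources used here, so antisense and overlapping genes cannot be told apart. The 4 rows with repeated identifiers were dropped, 20026 were kept and 4066 of them were 0 in every library. Genes that reached 0.5 FPKM in 2 or more of 6 libraries were tested with limma 3.58.1 in R 4.3.3 on log2(FPKM + 1), a scale that understates the change of low genes, with trend and group means over all 6 libraries, two-sided, Benjamini-Hochberg over 11445 genes. Counts, medians and most single changes are given without and with median-of-ratios scaling. The test was also run on simulated data with known changes. That simulation gave every gene the same spread and no shift between libraries. It therefore cannot bear on the choice of scaling or on the calls made here. The number of reads is unknown, so no counting interval is given.

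Members, lists and tests were chosen with earlier results of these data known. A gene can be in more than 1 of the 34 pathway and 4 marker lists. Genes named are the 12 largest rises and falls, up to 4 called members of each list with the largest change, members that differ from their list, TEAD and cofactor genes and markers. Further list members named in the text were chosen after their values were seen. Coordinates are from GENCODE release 29 and RefSeq, not from the files. Replicate numbers did not pair the libraries (correlations of deviations from -0.031 to 0.032). Alternatives were other scalings, pseudocounts and filters, fewer libraries, a replicate block, no variance trend and length adjustment.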

Additional observations from a re-analysis of the deposited data

How the results depend on the processing

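The counts of called genes depended mainly on scaling. Against 1187 higher and 3952 lower genes, median-of-ratios scaling gave 2600 and 2270, upper-quartile scaling 2263 and 2520, and length adjustment, added after seeing the data, 2600 and 2123. Changes of at least 1 (5 higher, 28 lower) numbered 8 and 17, 18 lower with upper-quartile scaling, 11 and 18 with length adjustment, and 23 and 155 with a pseudocount of 0.1, which gives low genes more weight. With 1 library left out in turn, 793 to 1098 genes were higher and 2934 to 3771 lower, 5 to 8 and 28 to 34 by at least 1, with 8 higher without wild type replicate 1. The replicate block gave 1119 higher and 3847 lower, though the numbers did not pair the libraries, and the small changes of DDX10, NOP2 and IFITM3 lost their call. No filter gave 1080 and 3654. TEAD4 stayed lower and past the threshold in all settings run (-0.13 to -0.26, adjusted p = 0.0011 to 0.0236). Directions that reversed were those of TEAD2, BAMBI and BCL2L1, which were not called, and NOP2 and DDX10, which were called lower, and the cause was not tested. NOP2 reversed with median-of-ratios (0.0214), upper-quartile (0.00128) and length-adjusted values (0.0111), and DDX10 with median-of-ratios scaling (0.00421). With 1 library left out, TEAD2 ranged from -0.00898 to 0.118, BAMBI from -0.0630 to 0.0957 and BCL2L1 from -0.0485 to 0.0486. Calls of named genes lost under scaling or without 1 library are given in the text for those that are not summed up in a list's count. DESeq2 was not run because the files hold no counts. The number of reads is unknown, so what depth limits cannot be given in counts.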
